A study of Mus musculus with 9 samples.

Results

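Brown fat identity and heat production were followed through 10 genes on 9 microarrays: the heat-producing effectors Ucp1, Dio2 and Elovl3, the coactivators Ppargc1a and Ppargc1b, the nuclear receptor Ppara, the lineage regulators Prdm16, Ebf2 and Zic1, and the proton channel gene Otop1. They were listed by name as known genes of brown fat identity and thermogenesis, with earlier results of these data known. They make up 10 of the 19858 genes that had a probe set with a single gene symbol. Each gene is represented by its brightest such probe set, and dim genes were kept with their level stated.

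Precursor-enriched cells of interscapular brown fat, from male C57BL/6 mice of 5 weeks of age, were grown in primary culture. Insulin was raised stepwise and RNA was taken at about day 9, so every group, control included, holds cells differentiated in culture under insulin. The labels name no adrenergic agonist and no batch. There were 3 cultures per group, and no subject number recurs between groups. The LPA group (subjects 7, 8 and 9) received 1-oleoyl lysophosphatidic acid, a signalling lipid, at 5 µM. The HA155 group (subjects 4, 5 and 6) received HA155, an inhibitor of autotaxin, the secreted enzyme that makes LPA, at 2.5 µM. The control group (subjects 1, 2 and 3) received the vehicle DMSO. Exposure time is not settled: the design text puts treatment within differentiation, and the labels put it at 9 days in vitro.

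Brown fat cells burn fatty acids in mitochondria and release the energy as heat through UCP1, a carrier of the inner membrane that lets protons return without making ATP. Cold drives this through noradrenaline and cyclic AMP, which induce Ucp1, the thyroid hormone-activating deiodinase Dio2, the fatty acid elongase Elovl3 and Ppargc1a, while PRDM16 and EBF2 mark the brown lineage and keep its genes open to the receptor PPAR gamma. The PGC-1 coactivators join nuclear receptors, among them PPAR alpha (Ppara), on genes of mitochondrial biogenesis and fatty acid oxidation.

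Array quality bears on the results in a few places. On the first principal component (66.7% of the variance) LPA arrays scored 19.6 to 28.7 and the others -15.5 to -7.28. LPA array 8 lay farthest out, at 28.7, and had the lowest array weight (0.253, where an average array has 1). The median SD of a gene's log2 intensity was 0.107 among LPA arrays, 0.054 among HA155 arrays and 0.0743 among control arrays. Marker lists were compared with the intensity filter (a mean of at least 48.2, or 5.59 on the log2 scale). All 18 measured genes of a general adipocyte list passed it. So did 16 of 22 other brown fat markers, 17 of 18 preadipocyte genes and 17 of 21 skeletal muscle genes. Passing the filter therefore does not single out brown fat cells. The 3 comparisons share arrays, so their values are given side by side and are not independent.

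The 3 effectors read near background in every culture. Ucp1 had intensities of 38.2, 39.3 and 31.2 in LPA cultures and 39.2, 42.3 and 36.1 in HA155 cultures, against 34.6, 38.2 and 38.9 in control cultures. All 9 values lay below the intensity filter and the groups overlapped. In a fit without the filter, the log2 change of Ucp1 was -0.04 with LPA (SE 0.10, 95% interval -0.26 to 0.17, limma adjusted p = 0.833) and 0.07 with HA155 (SE 0.10, interval -0.14 to 0.29, limma adjusted p = 0.959). RMA compresses the changes of dim probe sets, so these intervals bound the array signal and not the transcript.

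Dio2 read 37.2, 32.7 and 34.3 with LPA and 35.2, 36.6 and 35.2 with HA155, against the same value of 35.2 in all 3 control arrays. HA155 arrays 4 and 6 held that identical value too, and such ties understate the spread. Elovl3 read 20.0, 22.4 and 21.4 with LPA and 23.5, 22.0 and 23.2 with HA155, against 23.1, 20.1 and 22.0 in control. Every one of these arrays was below the filter as well, and no group stood apart from another. None of the 3 effectors was called in any comparison without the filter, where the share of the 19858 genes called was 13.7% between LPA and control, 0.433% between HA155 and control and 15.9% between LPA and HA155. None reached an unadjusted p below 0.05 in any of the 3 comparisons either.

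The promoter windows of Ucp1 and Dio2 are shown because both genes are textbook targets of cyclic AMP and neither was above the intensity filter here. The windows run from 250 bases before to 50 bases after the annotated start (RefSeq, mouse build GRCm38.p6), Ucp1 at chr8:83290098-83290397 on the plus strand and Dio2 at chr12:90738989-90739288 on the minus strand. Capitals mark matches, on either strand, to any of these motifs: TGACGTCA (cyclic AMP response element), TGACG (its core, which the full element contains), AGGTCA (core motif of nuclear receptors), TATAAA (the TATA box), GGGCGG (the GC box), CCAAT (the CCAAT box) and CACGTG (an E-box).
Ucp1: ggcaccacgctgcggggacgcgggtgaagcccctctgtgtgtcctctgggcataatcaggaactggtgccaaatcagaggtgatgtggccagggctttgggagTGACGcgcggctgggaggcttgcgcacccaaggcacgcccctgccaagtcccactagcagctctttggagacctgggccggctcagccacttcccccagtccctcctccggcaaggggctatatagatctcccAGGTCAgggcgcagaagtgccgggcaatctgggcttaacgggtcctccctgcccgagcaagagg
Dio2: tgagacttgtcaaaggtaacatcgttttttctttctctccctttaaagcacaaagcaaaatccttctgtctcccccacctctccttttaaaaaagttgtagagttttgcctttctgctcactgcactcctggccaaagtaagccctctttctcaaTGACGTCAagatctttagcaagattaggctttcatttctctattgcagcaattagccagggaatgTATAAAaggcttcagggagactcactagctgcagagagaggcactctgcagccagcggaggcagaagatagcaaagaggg

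The Dio2 window holds the full element TGACGTCA with its first base at -95 from the start site, a motif found in 1.79% of all 32851 annotated windows, and a TATAAA at -30 (13.6% of windows). The Ucp1 window holds AGGTCA at -14 (16.3%) and TGACG at -147 (20.8%). Ucp1 is GC-rich, at 64.7% with 15 CpG, and Dio2 is not, at 44.7% with 3 CpG. The median window had 52.7% GC and 7 CpG. These matches describe the letters of the windows and show no binding.

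**Figure D1:**
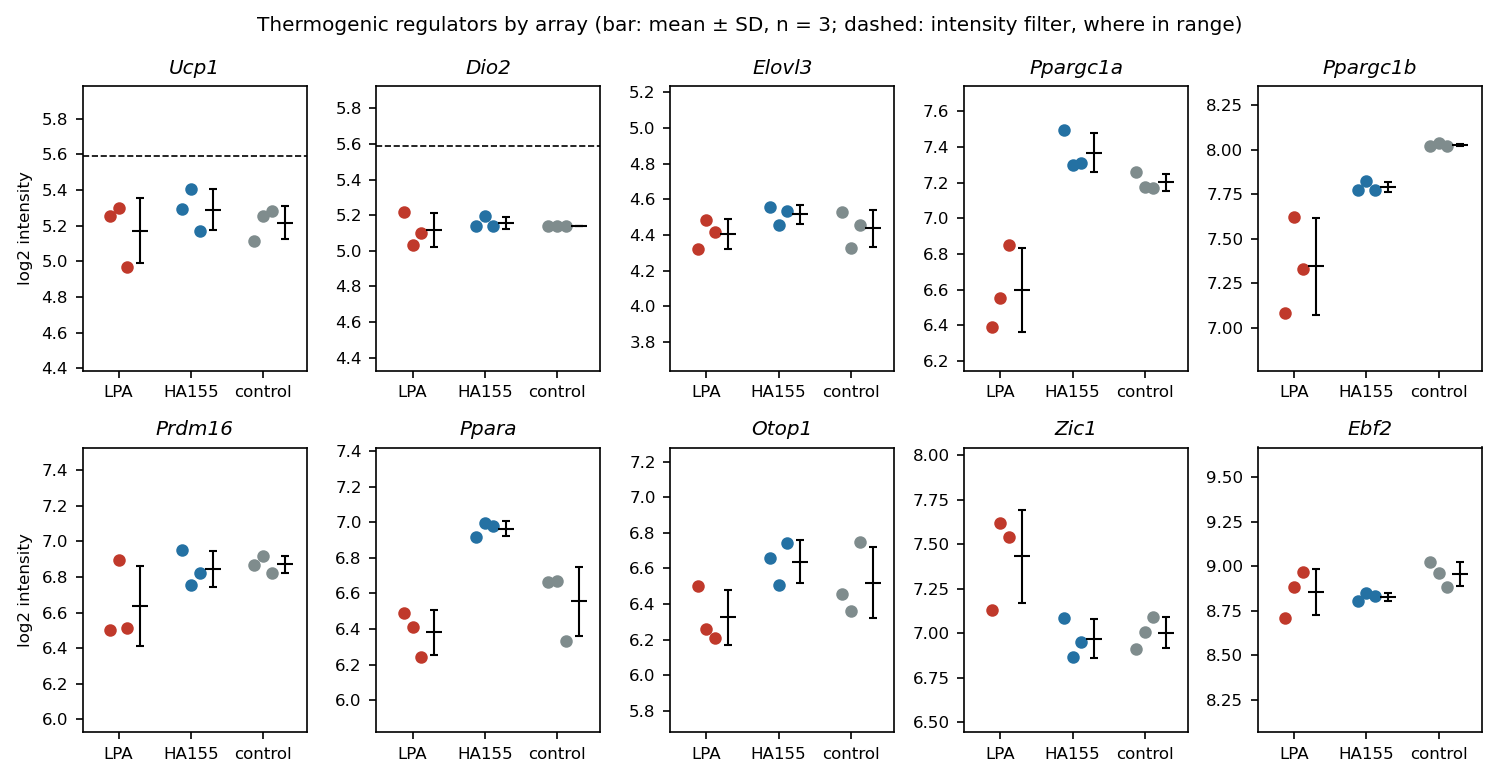
Log2 intensity of the 10 genes in each array, with LPA cultures left, HA155 cultures in the middle and control cultures right. Points are single arrays and bars are means with SD (n = 3). The dashed line is the intensity filter, in range only in the Ucp1 and Dio2 panels. Ucp1, Dio2 and Elovl3 lie under the filter in all 9 arrays, Ppargc1a and Ppargc1b are lowest in the LPA arrays, and Zic1 is highest there.

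Both PGC-1 coactivator genes fell with LPA, and Zic1 was the 1 gene of the set that rose. Of the 7 genes that passed the filter, 1 rose and 2 fell for LPA against control at an adjusted p below 0.05, where 23.0% of all 13335 genes tested were called (12.2% rose and 10.8% fell). None of the 7 was called for HA155 against control, where 1.03% of genes were (0.607% rose and 0.427% fell). For LPA against HA155, 1 rose and 3 fell, where 26.1% of genes were called (13.7% rose and 12.4% fell). An unadjusted p below 0.05 was reached by 4, 1 and 5 of the 7 in these comparisons, beside 34.3%, 8.11% and 35.6% of all genes tested. The groups did not overlap for 3, 4 and 5 of the 7, beside 33.1%, 16.8% and 38.7% of all genes. The median log2 change of the 7 was -0.20, -0.03 and -0.31, beside 0.01, 0.00 and 0.01 over all genes tested.

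Ppargc1a encodes the cold-inducible coactivator that drives mitochondrial biogenesis in brown fat. Its intensity was 83.9, 93.8 and 115.6 in LPA cultures and 180.5, 157.4 and 159.0 in HA155 cultures, against 153.1, 144.5 and 144.1 in control cultures. The LPA values lay below all others, and the HA155 values lay just above the control values without overlap. In log2 units Ppargc1a fell by 0.60 with LPA (SE 0.11, limma adjusted p = 0.0016, n = 3 each), to 0.659 times the control level. Against HA155 the log2 change was -0.77 (SE 0.11, limma adjusted p = 0.00025). With HA155 the change from control was 0.17 (SE 0.11, 95% interval -0.06 to 0.40, limma adjusted p = 0.833).

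A second, dimmer probe set of Ppargc1a gave 65.5, 72.8 and 64.4 with LPA and 125.6, 101.6 and 127.9 with HA155, against 105.9, 90.8 and 101.8 in control. It also placed all LPA arrays lowest, while its HA155 and control arrays overlapped. Its log2 change was -0.56 for LPA against control (limma adjusted p = 0.00342), -0.80 for LPA against HA155 (limma adjusted p = 0.000264) and 0.25 for HA155 against control (limma adjusted p = 0.673), in a fit over single probe sets.

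Ppargc1b encodes a related coactivator that raises mitochondrial content but is not strongly induced by cold. It measured 135.4, 197.5 and 161.0 in LPA cultures and 219.2, 226.7 and 218.7 in HA155 cultures, against 260.3, 262.5 and 259.9 in control cultures. The 3 groups did not overlap, and the order was LPA, HA155, control. In log2 units Ppargc1b fell by 0.68 with LPA (SE 0.11, limma adjusted p = 0.000858), and LPA differed from HA155 by -0.45 (SE 0.11, limma adjusted p = 0.0102). HA155 gave -0.24 against control (SE 0.11, 95% interval -0.47 to 0.00, limma adjusted p = 0.623). With HA155 and control arrays alone in the fit, that value had a limma adjusted p of 0.0372, in a range of 0.0372 to 1.0 over the alternatives.

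In HA155 cultures the coactivator pair had values on opposite sides of control, though neither gene was called (limma adjusted p = 0.833 and 0.623). The log2 ratio of Ppargc1a to Ppargc1b, set to 0 at the control mean, was 0.14, -0.25 and 0.35 in LPA arrays and 0.55, 0.30 and 0.37 in HA155 arrays, against 0.06, -0.03 and -0.02 in control arrays. All HA155 arrays exceeded all control arrays, whereas the LPA arrays lay on both sides of 0. Every HA155 array was above control for Ppargc1a and below it for Ppargc1b. The separation of the ratio and its permutation p were therefore fixed in advance and add no support. The ratio averaged 0.40 ± 0.13 with HA155 and 0.00 ± 0.05 in control (SD, n = 3 each; two-sided exact permutation p = 0.1, the smallest that 3 arrays against 3 can give). For LPA against control the exact permutation p was 0.7 and for LPA against HA155 it was 0.2. The ratio was chosen after the values of both genes were seen.

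Ppara encodes a fatty acid-sensing nuclear receptor that the PGC-1 coactivators bind. Its intensity was 89.8, 85.0 and 75.8 in LPA cultures and 120.8, 127.5 and 126.2 in HA155 cultures, against 101.6, 101.8 and 80.6 in control cultures. The HA155 arrays stood above all others, and control array 3 fell among the LPA arrays. The log2 change of LPA against HA155 was -0.58 (SE 0.10, limma adjusted p = 0.000928), or 0.668 times. For HA155 against control the change was 0.41 (SE 0.10, 95% interval 0.20 to 0.62, unadjusted p = 0.00143). It did not pass the adjustment (limma adjusted p = 0.0991) except with arrays weighted by quality (0.0248, in a range of 0.0248 to 0.356 over the alternatives), and it was the only one of the 7 genes with an unadjusted p below 0.05 in that comparison. For LPA against control the change was -0.18 (SE 0.10, 95% interval -0.39 to 0.04, limma adjusted p = 0.228), and -0.29 (limma adjusted p = 0.0322, in a range of 0.0322 to 0.513) without control array 3.

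The promoter windows of Ppargc1a and Ppara are shown because the levels of both genes separated LPA from HA155. Ppargc1b did so too, but no window was used for it. They lie at chr5:51567676-51567975 on the minus strand and chr15:85735526-85735825 on the plus strand of GRCm38.p6 (RefSeq), with the same motifs in capitals. Both lie inside the annotated span of their gene, chr5:51454249-52115853 for Ppargc1a and chr15:85734910-85806851 for Ppara. Each window describes a single start site, and other starts of these genes were not examined.
Ppargc1a: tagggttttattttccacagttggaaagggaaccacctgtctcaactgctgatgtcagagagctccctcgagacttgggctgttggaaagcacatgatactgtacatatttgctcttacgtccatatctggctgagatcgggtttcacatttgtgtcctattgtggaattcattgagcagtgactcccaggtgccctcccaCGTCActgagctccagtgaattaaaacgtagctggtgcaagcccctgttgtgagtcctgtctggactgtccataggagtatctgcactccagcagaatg
Ppara: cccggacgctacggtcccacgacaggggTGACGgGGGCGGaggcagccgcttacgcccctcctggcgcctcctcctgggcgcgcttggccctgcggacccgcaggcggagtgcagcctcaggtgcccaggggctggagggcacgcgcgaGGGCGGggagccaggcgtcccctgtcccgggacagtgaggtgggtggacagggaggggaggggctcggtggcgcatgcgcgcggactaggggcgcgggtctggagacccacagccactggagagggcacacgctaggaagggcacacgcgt

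The Ppargc1a window holds 1 match, the core TGACG of the cyclic AMP response element on its minus strand at -49, in a sequence of 48.7% GC with 5 CpG. The Ppara window differs in composition, with 74.7% GC and 30 CpG. It holds TGACG at -222 and the GC box GGGCGG at -216 and -101, a motif found in 35.7% of all windows.

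Zic1 encodes a zinc finger transcription factor used as a marker of classical interscapular brown fat against beige and white fat. It measured 140.4, 196.5 and 186.3 in LPA cultures and 135.8, 116.8 and 123.9 in HA155 cultures, against 120.5, 128.6 and 136.1 in control cultures. The LPA arrays lay above all others, array 7 by a little and arrays 8 and 9 by more. Zic1 rose with LPA by 0.43 on the log2 scale against control (SE 0.12, limma adjusted p = 0.0197) and differed by 0.46 from HA155 (SE 0.12, limma adjusted p = 0.0117). The rise against control was no longer called without control array 1 (limma adjusted p = 0.0701), control array 2 (0.0590), LPA array 8 (0.0658) or LPA array 9 (0.0705), in a range of 0.000899 to 0.0892 over the alternatives. The difference from HA155 was not called without HA155 array 5 (limma adjusted p = 0.0510). With HA155 the change from control was -0.03 (95% interval -0.29 to 0.22, limma adjusted p = 0.987).

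The promoter window of Zic1, the member that rose, lies at chr9:91365719-91366018 on the minus strand of GRCm38.p6 (RefSeq).
Zic1: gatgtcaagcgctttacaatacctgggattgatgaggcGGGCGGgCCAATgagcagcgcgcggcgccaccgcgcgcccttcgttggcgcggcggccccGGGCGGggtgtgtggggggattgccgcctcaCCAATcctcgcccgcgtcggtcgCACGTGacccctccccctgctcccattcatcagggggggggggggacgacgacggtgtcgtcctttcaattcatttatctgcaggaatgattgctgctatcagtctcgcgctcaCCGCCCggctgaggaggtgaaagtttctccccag

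It has 65.3% GC and 31 CpG, the most CpG of the 7 member windows used. In capitals are GGGCGG at -212, -152 and, on the minus strand, 17, CCAAT at -205 and -121 (37.4% of all windows) and CACGTG at -98 (7.15%). No window was used for Elovl3 and Ebf2.

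Prdm16 encodes the zinc finger coregulator that holds brown precursors to their fate. It measured 90.7, 118.9 and 91.3 with LPA and 123.8, 108.2 and 113.4 with HA155, against 116.9, 121.0 and 113.4 in control. LPA arrays 7 and 9 lay below every other array, while LPA array 8 lay within the control range. The log2 change with LPA was -0.23 (SE 0.10, 95% interval -0.46 to -0.01, limma adjusted p = 0.125). Without LPA array 8 it was -0.36 (limma adjusted p = 0.00331, in a range of 0.00331 to 0.303 over the alternatives), and LPA against HA155 was likewise -0.34 (limma adjusted p = 0.00434) in place of -0.21 (limma adjusted p = 0.165). Prdm16 with HA155 gave -0.03 against control (95% interval -0.25 to 0.19, limma adjusted p = 0.987).

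Ebf2, the factor that marks brown precursors, measured 419.3, 472.6 and 499.7 with LPA and 446.7, 460.9 and 455.1 with HA155, against 519.6, 498.5 and 472.6 in control. The LPA arrays spanned most of the whole range, and the HA155 arrays lay narrowly together under the control arrays. The log2 change was -0.10 with LPA (SE 0.07, 95% interval -0.26 to 0.06, limma adjusted p = 0.353) and -0.13 with HA155 (SE 0.07, 95% interval -0.29 to 0.03, limma adjusted p = 0.768). Between LPA and HA155 it was 0.03 (95% interval -0.13 to 0.19, limma adjusted p = 0.838).

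Otop1, which encodes a proton-selective channel, measured 90.8, 76.7 and 74.1 with LPA and 101.2, 90.9 and 107.2 with HA155, against 87.7, 82.2 and 107.4 in control. All LPA arrays were below all HA155 arrays, though LPA array 7 and HA155 array 5 were nearly level, and control overlapped both. LPA against HA155 gave a log2 change of -0.31 (SE 0.11, 95% interval -0.56 to -0.07, limma adjusted p = 0.0622). It was called without control array 3 (limma adjusted p = 0.0338) or LPA array 7 (limma adjusted p = 0.0276, in a range of 0.0276 to 0.211). Against control the log2 change of Otop1 was -0.20 with LPA (95% interval -0.44 to 0.05, limma adjusted p = 0.246) and 0.12 with HA155 (95% interval -0.13 to 0.36, limma adjusted p = 0.923).

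**Figure D2:**
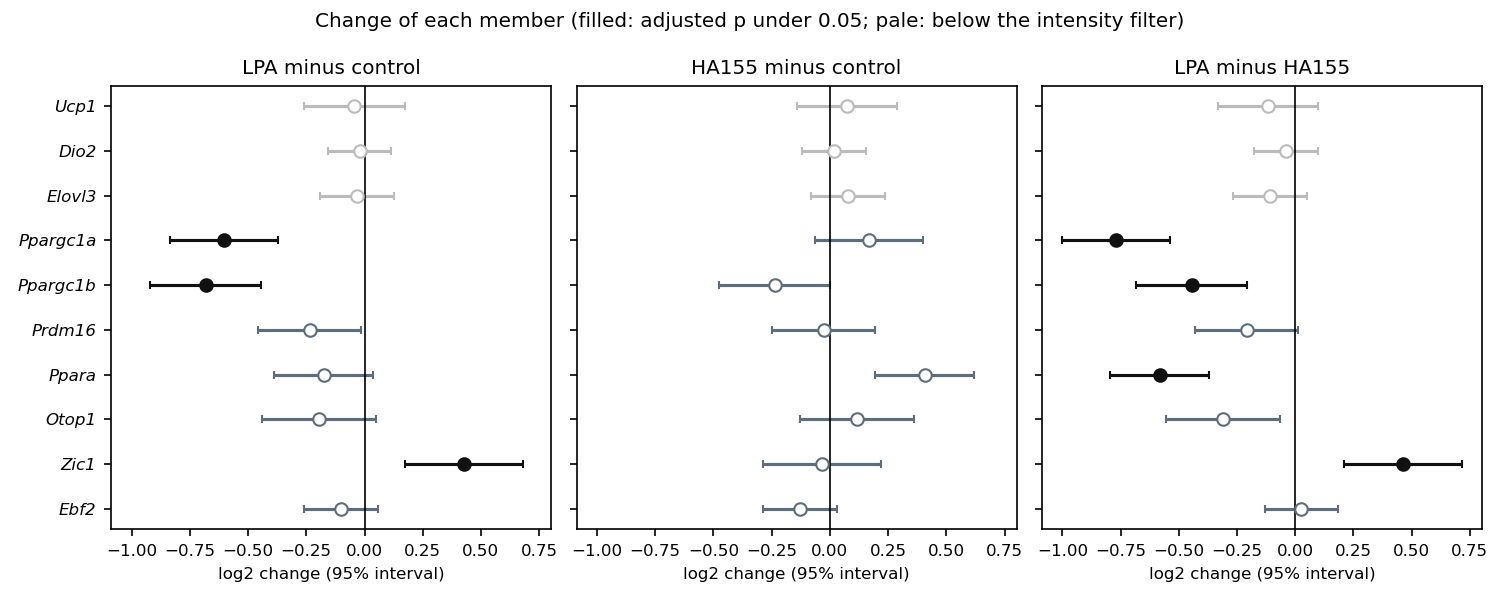
Log2 change of each gene with its 95% interval in 3 comparisons, LPA minus control, HA155 minus control and LPA minus HA155. Filled points had a limma adjusted p below 0.05 and pale points lie below the intensity filter. Ppargc1a and Ppargc1b are left of 0 and Zic1 right of 0 in both LPA comparisons, and no point is filled for HA155 minus control.

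**Figure D3:**
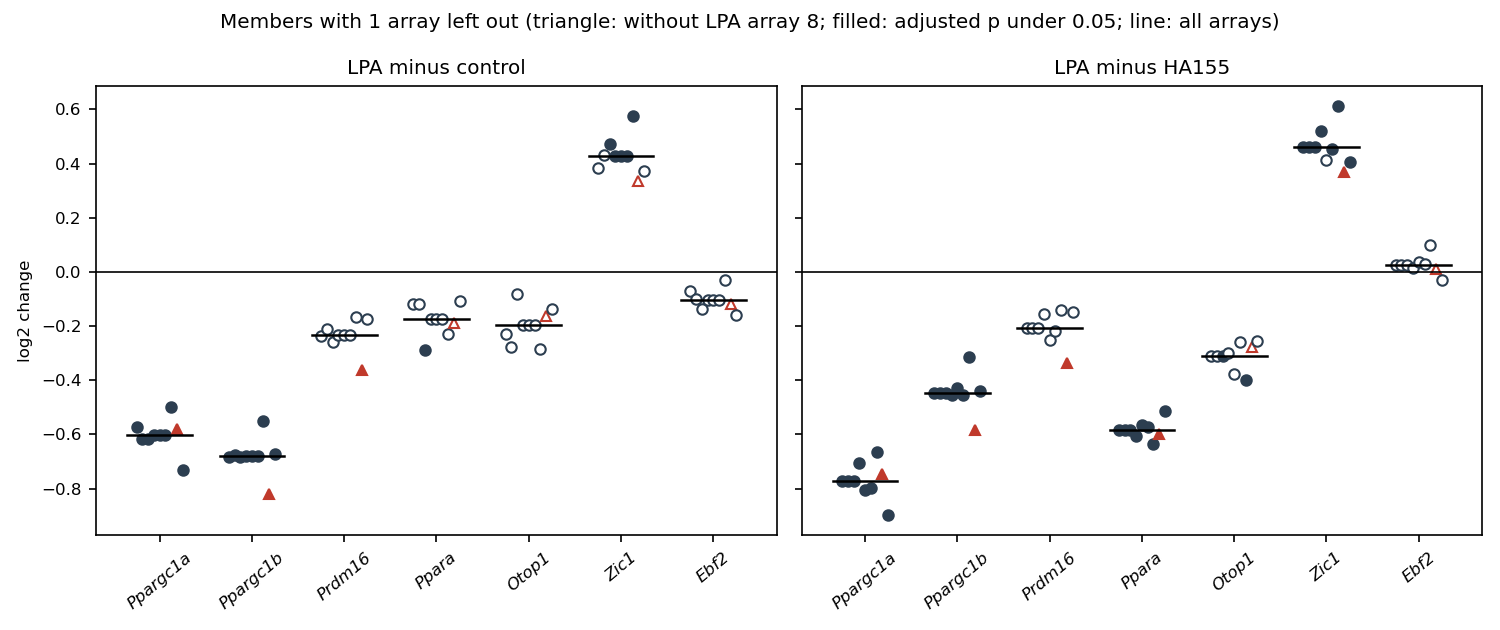
Log2 change of the 7 genes above the filter when each of the 9 arrays is left out in turn, with a line at the value from all arrays and a triangle for the fit without LPA array 8. Ppargc1a and Ppargc1b stay filled (limma adjusted p below 0.05) throughout, Zic1 loses its call against control in 4 fits, and Prdm16 is called in both panels only without LPA array 8.

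Markers of other cell states moved in the same comparisons. Among all genes tested, 12.2% rose and 10.8% fell with LPA, and 0.607% rose and 0.427% fell with HA155. All 18 tested general adipocyte genes fell with LPA, with a median log2 change of -1.39, and their summed intensity was 29980 to 30810 in LPA arrays, 61650 to 64540 in HA155 arrays and 59000 to 60890 in control arrays. Of 17 tested preadipocyte genes 10 rose with LPA and 0 fell, among them the secreted Wnt modulators Sfrp1 (0.91) and Sfrp2 (0.79), and the list summed to 28810 to 30530 with LPA, 17480 to 19790 with HA155 and 19270 to 20690 in control. In the fit without LPA array 8 the adipocyte count was still 18 and the preadipocyte count was 12. With HA155, 3 of the 18 adipocyte genes rose, which was 1 without any of the HA155 or control arrays or LPA arrays 7 or 9 and 4 without LPA array 8, and 2 of the 17 preadipocyte genes fell, which was 1 without control array 2 or HA155 array 4. These are bulk cultures, in which fewer cells of a type and less RNA per cell cannot be told apart. The part of these shifts in the falls of the coactivator genes and the rise of Zic1 was not tested.

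Of 17 tested skeletal muscle genes, 10 rose with LPA and 0 fell, led by the myosin Myh1 (log2 change 0.98) and the desmin gene Des (0.58), and 7 rose without LPA array 8 or without control array 3. With HA155, where Zic1 was at -0.03, 1 of the 17 rose, again Myh1 (0.64, SE 0.09, limma adjusted p = 0.00695). The list summed to 2690 to 3233 in LPA arrays, 2082 to 2255 in HA155 arrays and 2046 to 2205 in control arrays. Myf5, Myf6, Myh2 and Myh4 were below the filter in every array. Of other cell types, 1 of 6 tested Schwann and neural genes, 2 of 10 endothelial genes and 0 of 8 macrophage genes rose with LPA. In addition, 1 endothelial gene fell, a call lost without control arrays 2 or 3 or LPA array 8. Without LPA array 9, 2 Schwann and neural genes rose. The called share with LPA was 58.8% for skeletal muscle, 16.7% for Schwann and neural and 30.0% for endothelial genes. Over all genes tested it was 23.0%. With HA155 it was 5.88% for skeletal muscle genes, beside 1.03% of all genes tested. Dbh and Tubb3 were below the filter in every array. The part of these genes in the Zic1 result was not tested.

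Among relatives of the 10 genes, Elovl6, the elongase of lipogenesis, fell by 0.81 in log2 units with LPA (SE 0.07, limma adjusted p = 1.09e-05), where Elovl3 stayed at background. Pparg, the adipogenic relative of Ppara, fell by 0.46 (SE 0.06, limma adjusted p = 0.000213). Dio3, the deiodinase that inactivates thyroid hormone, rose by 0.46 (SE 0.09, limma adjusted p = 0.00259), with 101.2, 92.8 and 90.5 in LPA arrays, against 75.5, 66.1 and 64.8 in control arrays. Of all 20 tested paralogs, 2 rose and 2 fell with LPA, or 20.0%, near the 23.0% of all genes tested. The other rise was Ebf1 (0.23, limma adjusted p = 0.0421), a call that only the fit without LPA array 7 kept when single arrays were left out; 4 paralogs rose in that fit and 1 in the others. With HA155 limma called 0 of the 20, and 0 had an unadjusted p below 0.05.

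Among other brown fat markers, Cox8b and Cox7a1 were lowest with LPA and highest with HA155. Of 16 tested, 2 rose and 5 fell with LPA against control, 3 rose and 0 fell with HA155 against control, and 2 rose and 6 fell for LPA against HA155. The called share was 43.8% with LPA, 18.8% with HA155 and 50.0% for LPA against HA155. Over all genes tested it was 23.0%, 1.03% and 26.1%. Against control, 9 of the 16 were not called with LPA and 13 were not called with HA155. Their median log2 change was 0.0044 with LPA and 0.0516 with HA155, beside 0.0052 and 0.0018 over all genes tested. Without control array 3, 1 rose with LPA. Cox8b, a cytochrome oxidase subunit of muscle and brown fat, had intensities of 83.9, 77.6 and 97.3 with LPA and 576.9, 621.6 and 672.9 with HA155, against 332.3, 285.5 and 310.9 in control. The groups were far apart, LPA lowest and HA155 highest, with log2 changes of -1.85 for LPA (SE 0.09, limma adjusted p = 4.18e-07) and 1.01 for HA155 (SE 0.09, limma adjusted p = 0.000609). Cox7a1, another tissue-specific subunit, changed by -1.84 with LPA (limma adjusted p = 4.71e-08) and 1.13 with HA155 (limma adjusted p = 8.96e-06), although its 3 control arrays held the identical value of 440.9, which understates the spread.

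Letmd1, a mitochondrial protein needed for thermogenesis in mice, fell by 0.72 with LPA (SE 0.07, limma adjusted p = 3.09e-05), while Pltp, a phospholipid transfer protein, rose by 0.54 (SE 0.06, limma adjusted p = 7.88e-05). Cidea, a lipid droplet protein of brown fat, was chosen here after its values were seen. It measured 27.4, 27.7 and 25.9 with LPA and 92.5, 71.2 and 89.9 with HA155, against 31.3, 34.4 and 25.5 in control. Only the HA155 arrays lay above the intensity filter, so no exact fold is given. In the fit without the filter the limma adjusted p was 0.00108 for HA155 against control and 6.59e-06 for LPA against HA155.

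Most genes listed as PPAR alpha targets fell with LPA. Of 34 tested, 22 fell and 0 rose for LPA against control, or 64.7% beside 23.0% of all genes tested, with a median log2 change of -0.60, and 22 or 23 fell whichever array was left out. Gpd1, the cytosolic glycerol phosphate dehydrogenase, fell by 1.85 (SE 0.08, limma adjusted p = 1.93e-07). The acyl-CoA dehydrogenase gene Acadm fell by 1.02 (SE 0.07, limma adjusted p = 1.86e-06), its relative Acadvl fell by 0.94 (SE 0.06, limma adjusted p = 9.77e-07), and the isomerase gene Eci1 fell by 1.03 (SE 0.07, limma adjusted p = 2.33e-06). Gpd1 and Fabp4 stand in the general adipocyte list too, of which 18 of 18 fell in the same arrays, and the part of that shift in the count was not tested.

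With HA155, 5 of the 34 rose and 0 fell, or 14.7% beside 1.03% of all genes tested, with a median of 0.13. Acaa2, the thiolase that ends mitochondrial beta-oxidation, rose by 0.42 (SE 0.06, limma adjusted p = 0.00566), with 1615, 1596 and 1636 in HA155 arrays, against 1254, 1200 and 1176 in control arrays. Ehhadh, a peroxisomal enzyme of fatty acid oxidation, rose by 0.47 (limma adjusted p = 0.0240) and Hadhb, of the trifunctional protein, by 0.45 (limma adjusted p = 0.0244). Both calls were lost when any 1 of the 6 HA155 and control arrays was left out (limma adjusted p up to 0.136 and 0.142), and only 1 of the 34 was then called. Without LPA array 8, 8 rose, and without LPA array 7, 3 rose.

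Of 45 tested partners and targets of the PGC-1 coactivators, 3 rose and 9 fell with LPA, or 26.7%, near the 23.0% of all genes tested, with a median log2 change of -0.04. Lpin1, a phosphatidate phosphatase and coactivator partner, fell by 1.12 (SE 0.06, limma adjusted p = 4.17e-07). Sncg, gamma-synuclein, fell by 1.42 (SE 0.07, limma adjusted p = 4.18e-07), the AMP-activated kinase subunit gene Prkaa2 fell by 0.91 (SE 0.08, limma adjusted p = 1.80e-05) and Cycs, cytochrome c, fell by 0.74 (SE 0.08, limma adjusted p = 7.19e-05). Without LPA array 7 the count was 7 rises and 8 falls. With HA155 limma called 0 of the 45, with 4 at an unadjusted p below 0.05, and 1 rose without LPA array 8.

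Of 30 tested partners of PRDM16 and the EBF factors, 6 rose and 4 fell with LPA, or 33.3%, beside 23.0% of all genes tested. With 1 array left out, 4 to 6 rose and 3 to 5 fell. Cebpd, an early adipogenic factor, rose by 0.79 (SE 0.12, limma adjusted p = 0.000644), and Cebpa, a late one, fell by 0.58 (SE 0.09, limma adjusted p = 0.000617). Their relative Cebpb was not called, at 0.06 (SE 0.11, limma adjusted p = 0.748). Irf4, a thermogenic partner of the coactivator encoded by Ppargc1a, fell by 0.69 (SE 0.10, limma adjusted p = 0.000338) to values of 45.4, 40.8 and 42.4 in LPA arrays, all below the filter, so the size of its fall is uncertain. Pdgfra, a receptor of fat precursors, rose by 0.44 (SE 0.07, limma adjusted p = 0.00104). With HA155 limma called 0 of the 30 and 0 had an unadjusted p below 0.05.

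Of 19 tested genes that carry adrenergic, thyroid and FGF21 inputs to thermogenesis, 4 rose and 7 fell with LPA. This was 57.9%, beside 23.0% of all genes tested. The count was 3 rises and 6 falls without any 1 of the control and HA155 arrays. It was 5 and 6 without LPA array 7, 3 and 7 without LPA array 8 and 3 and 8 without LPA array 9. Klb, the co-receptor for FGF21, fell by 1.42 (SE 0.07, limma adjusted p = 4.35e-07), and the thyrotropin receptor gene Tshr fell by 1.41 (SE 0.08, limma adjusted p = 6.25e-07). Pde3b, a phosphodiesterase that breaks down cyclic AMP, fell by 1.12 (SE 0.06, limma adjusted p = 4.46e-07). Rgs2, a regulator of G protein signalling, had 191.8, 200.6 and 208.2 with LPA and 606.2, 598.6 and 631.8 with HA155, against the identical 457.7 in 3 control arrays. It changed by -1.19 with LPA (limma adjusted p = 2.38e-07) and 0.42 with HA155 (limma adjusted p = 0.00541), although the identical control values understate the spread. With HA155, 1 of the 19 rose, Rgs2, and 1 fell, against 1.03% of all genes called. The fall was that of Npr3, a clearance receptor for natriuretic peptides, which fell by 0.27 (SE 0.05, limma adjusted p = 0.0350) and lost the call when any 1 of the 6 HA155 and control arrays was left out (limma adjusted p up to 0.178). The count was 2 rises and 2 falls without LPA array 8 and 2 rises and 1 fall without LPA array 9. With LPA, Npr3 rose by 0.35 (SE 0.05, limma adjusted p = 0.000522). The adrenergic receptor genes were not analysed here.

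The lists of paralogs, markers, partners, targets, inputs and other heat pathways numbered 8. Of 193 tested genes in them, 24 rose and 59 fell with LPA against control, or 43.0%. Among all genes tested the share was 23.0% (12.2% rose and 10.8% fell). With 1 array left out, the LPA falls numbered 54 to 64. The LPA rises numbered 31 without LPA array 7 and 16 to 20 in the other such fits. With HA155 10 rose and 3 fell, or 6.74%, beside 1.03%. The lists were chosen with earlier results of these data known, so these shares describe the lists and test nothing. The HA155 count of 13 was 6, 5 and 6 without control arrays 1, 2 and 3 and 6, 6 and 7 without HA155 arrays 4, 5 and 6, while it was 20 without LPA array 8. For LPA against HA155 33 rose and 65 fell, or 50.8%, beside 26.1% of all genes tested (13.7% rose and 12.4% fell). The rises numbered 20 without HA155 array 4. A gene that stands in several lists was counted once here and in each of its lists elsewhere. Several of these genes, such as Gpd1, Pparg, Cebpa, Lipe, Pnpla2 and Retn, also stand in the general adipocyte list. Of that list 18 of 18 fell with LPA, and the part of that shift in these counts was not tested.

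**Figure D4:**
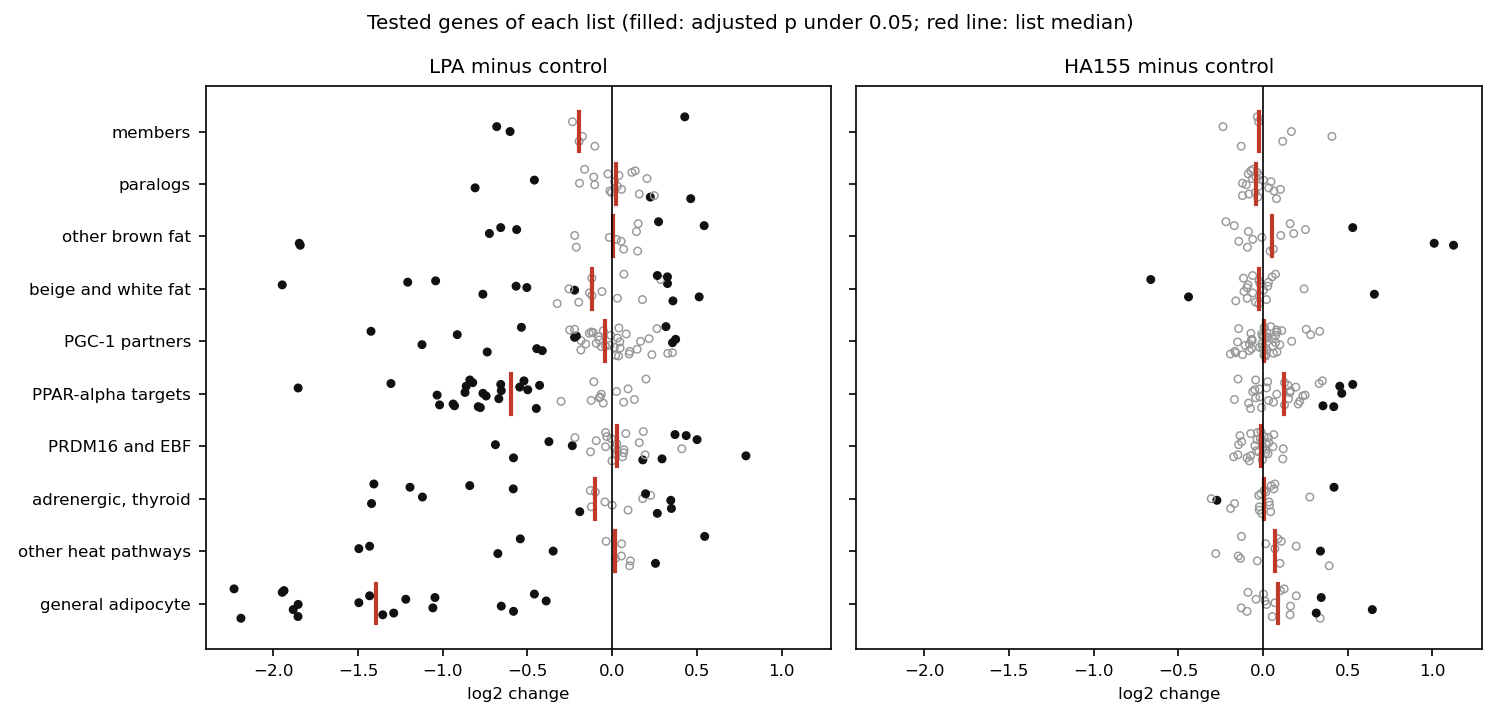
Log2 change of every tested gene in 10 lists, LPA minus control on the left and HA155 minus control on the right. Filled points had a limma adjusted p below 0.05 and red lines are list medians. The general adipocyte list (median -1.39) and the PPAR alpha targets (median -0.60) lie left of 0 with LPA, and with HA155 few points are filled.

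The genes closest in pattern to each called member were found by the root-mean-square distance between log2 values, each centred on its gene mean over the 9 arrays, among the 13334 other genes tested. For Ppargc1a these were Rbpms2 at 0.08, Ahcyl2 at 0.08 and Ptcd3 at 0.08, beside a root-mean-square spread of Ppargc1a itself of 0.35. Ppargc1b was nearest to Tenm4 (0.09), Mgst3 (0.09) and Hipk2 (0.10), with a spread of its own of 0.31. Against control, Ptcd3 had log2 changes of -0.51 with LPA and 0.20 with HA155, on the same sides of 0 as Ppargc1a, and Tenm4 had -0.77 and -0.14, on the same sides as Ppargc1b.

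Ppara was nearest to the aldehyde oxidase Aox1 (0.08), the acyl-CoA dehydrogenase Acad10 (0.10) and the purinergic receptor P2rx5 (0.10), beside a spread of its own of 0.27. Aox1 stood highest in HA155 arrays, at 286.5, 300.8 and 275.0, against 230.9, 221.3 and 183.0 in control arrays. Zic1 was nearest to Rusc2 (0.07), Zswim8 (0.07) and the Kruppel-like factor Klf6 (0.08), beside a spread of 0.25. Like Zic1, each of these 3 had its highest value in LPA array 8, for Klf6 768.4. These distances describe 9 arrays in 3 groups, and genes that follow the groups are near one another by that alone.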

How the data were processed

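Total RNA of 9 primary brown fat cultures, 3 per group, was labelled with biotin and hybridised to Affymetrix arrays, per the labels' protocols. What was deposited is an intensity for each probe set on each array. RMA is named per the submitters' processing notes, with the version not given in the sources used here. The linear scale was read from the values. RMA equalises the arrays' distributions and compresses changes of dim probe sets. Array medians were 70.7 to 72.8, and precision is limited by the number of arrays.

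Intensities were log2-transformed without an offset. Single gene symbols were listed for 21706 of 35432 probe sets (21615 of them matched in RefSeq by Entrez identifier), several symbols for 1605, which were left out, and none for 12121. The brightest probe set represented each of 19858 genes, and 13335 with a mean at or above the 40th percentile of all probe sets were tested. Limma 3.58.1 in R 4.3.3 (lmFit, eBayes) was fitted to all 9 arrays in 3 groups with no covariate, two-sided, with Benjamini-Hochberg adjustment over all genes of a comparison. "Rose", "fell" and "called" mean an adjusted p below 0.05. Dim members were tested without the filter. The procedure was tested on simulated data. The most alike pair of arrays shared 2649 identical values, and no arrays were duplicates. P-values measure the spread between cultures, and treatment cannot be told apart from any batch that runs along with it.

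The members and gene lists were chosen with earlier results of these data known. Named genes are all members and, per list, the 4 of smallest p for LPA against control and 3 for HA155 against control, the members' paralogs, and the 3 nearest genes per called member; Cidea was added. Alternatives were the filter, offset, normalization, variance model, array weights, a fit of 2 groups and leaving out each array; the dimmer Ppargc1a probe set was added after seeing the data. Promoter windows came from RefSeq (GRCm38.p6) and were used for 7 of 10 members.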

Additional observations from a re-analysis of the deposited data

How the results depend on the processing

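The calls of Ppargc1a (19 alternatives) and Ppargc1b (18) against control and against HA155, and of Ppara against HA155 (17), held in every alternative run, with limma adjusted p up to 0.00871, 0.00599, 0.00279, 0.0382 and 0.00589. Zic1 against control was lost in 5 of 18, array weights among them (log2 change 0.31, limma adjusted p = 0.0892), and against HA155 in 1 of 18. Prdm16 with LPA was also called with array weights, at -0.32 against control and -0.29 against HA155, as was Otop1 for LPA against HA155 when arrays were normalized by quantiles again (-0.34) or centred on the median (-0.34). For HA155 against control, 1 member was called with only those groups in the fit (Ppargc1b) and 1 with array weights (Ppara), against 0 otherwise; the other pathway genes called were 22 with array weights against 13, and 5 to 20 with 1 array left out. The cause was not tested. Values near 0 changed sign, none of them called. With array weights, Dio2 with LPA against control was 0.0108 and Ebf2 for LPA against HA155 was -0.0163. With 1 array left out, LPA against control ran from -0.106 to 0.06 for Ucp1, -0.0717 to 0.0216 for Dio2 and -0.0876 to 0.0147 for Elovl3. HA155 against control ran from -0.0794 to 0.0173 for Prdm16 and -0.0919 to 0.0166 for Zic1. LPA against HA155 ran from -0.0905 to 0.0028 for Dio2 and -0.029 to 0.0975 for Ebf2. A filter at the 60th percentile leaves out Prdm16, Ppara and Otop1. Signal near background limits Ucp1, Dio2 and Elovl3, whose transcripts could differ without a change in these intensities. No paired analysis was possible because the groups share no subject numbers.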

Other observations

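Heat pathways that do not need UCP1 (creatine cycling, calcium cycling, lipolysis and shuttles) had 13 tested genes. Of these, 2 rose and 5 fell with LPA against control, or 53.8% beside 23.0% of all genes tested, and 1 rose without control array 3. The median log2 change of the 13 was 0.0194, beside 0.0052 over all genes tested. Genes named next for LPA had the smallest p, and all of them fell. Lipe, the hormone-sensitive lipase, fell by 1.50 in log2 units (SE 0.07, limma adjusted p = 2.91e-07) and Pnpla2, adipose triglyceride lipase, fell by 1.43 (SE 0.07, limma adjusted p = 2.47e-07). Both stand in the general adipocyte list too, of which 18 of 18 fell, and the part of that shift here was not tested. Gamt, which makes creatine, fell by 0.67 (SE 0.07, limma adjusted p = 5.86e-05) and measured 318.5, 318.5 and 326.1 in HA155 arrays, against 386.2, 370.4 and 413.1 in control arrays (limma adjusted p = 0.152). The adenine nucleotide carrier Slc25a5 fell by 0.54 with LPA (SE 0.07, limma adjusted p = 0.000138). Gpd2, the mitochondrial glycerol phosphate dehydrogenase, was the 1 gene of the list that rose with HA155 (0.34, limma adjusted p = 0.0413). No gene fell, so the called share was 7.69%, beside 1.03% of all genes tested. Gpd2 lost that call without LPA array 7 or any 1 of the HA155 and control arrays (limma adjusted p up to 0.203).

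Of 23 tested markers of beige and white fat, 5 rose and 7 fell with LPA, or 52.2% beside 23.0% of all genes tested. The rises numbered 2 without control array 3, HA155 array 4 or LPA array 9 and 3 without control array 2, HA155 array 6 or LPA array 8. Retn, the adipokine resistin, fell by 1.95 (SE 0.09, limma adjusted p = 2.33e-07). It stands in the general adipocyte list too, of which 18 of 18 fell, and the part of that shift here was not tested. The amino acid transporter gene Slc36a2, a beige and brown marker, fell by 1.21 (SE 0.08, limma adjusted p = 3.09e-06), and Slc7a10, a white one, fell by 1.04 (SE 0.11, limma adjusted p = 5.97e-05). With HA155, 1 rose and 2 fell, and the falls numbered 0 without control array 2 and 1 without control arrays 1 or 3 or HA155 arrays 4 or 5. Lep, leptin, had 53.2, 49.6 and 42.8 in LPA arrays, near the filter, and 124.2, 134.2 and 129.9 in HA155 arrays, against 82.5, 82.5 and 81.1 in control arrays, a rise of 0.66 with HA155 (SE 0.08, limma adjusted p = 0.00257). Sp100 fell by 0.66 with HA155 (SE 0.10, limma adjusted p = 0.00904), a call lost without control array 2 (limma adjusted p = 0.0568).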
